A study of Mus musculus with 4 samples.

Results

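The genes of polyamine synthesis and breakdown were described in activated mouse CD4 T cells as a set of 10 genes out of the 50600 in the deposited count files. They were chosen by symbol, for their place in the pathway, and not by any measured value: Odc1, Amd1, Srm and Sms make polyamines, Azin1, Oaz1 and Oaz2 control Odc1, and Sat1, Smox and Paox break polyamines down or turn them back. Each of the 10 symbols matched 1 gene by identifier.

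RNA was sequenced in 4 libraries, biological replicates 1 to 4 of a single group: T cells from C57BL/6NJ mice, named in the file headers as Th0, activated, sorted and collected at 72 h. Th0 is the name for helper T cells activated without cytokines that direct them to a fate. The assay is labelled as total RNA sequencing, whereas the linked library protocol is named for polyadenylated RNA. No second condition, unstimulated sample or earlier time was analysed here, so nothing below measures a response to activation.

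Total counts were 34978213, 118937382, 42274502 and 95356041 in replicates 1 to 4, and a count of 0 allows up to 0.0858, 0.0252, 0.0710 and 0.0315 CPM, which are counts divided by the total of their library and scaled. The labels give 1 donor entry for all 4 libraries and no sex. Against that entry, Xist, the RNA of the silenced X chromosome, stood at 278 and 316 TPM (a level per length, scaled to the same total in each library) in replicates 1 and 2 and at 1.25 and 0.586 TPM in replicates 3 and 4. Ddx3y, on the Y chromosome, stood at 0.153 and 0.0739 TPM in replicates 1 and 2 and at 41.2 and 34.0 TPM in replicates 3 and 4. The libraries thus divided into pairs by these sex-linked genes. Whether each comes from its own animal or culture is not stated, so every spread here is the spread between these 4 libraries. Malat1, a nuclear RNA, also split them, with 348 and 246 TPM in replicates 1 and 3 and 63.2 and 59.3 TPM in replicates 2 and 4. The T cell label was borne out by all 8 of 8 T cell markers at 1 TPM or more in every library, with a summed level of 7561 to 7999 TPM. Cd4 averaged 976 TPM. Marker lists of other cells summed to 14.3 to 18.5 TPM for macrophages and monocytes, mostly Cd68, and 17.5 to 29.5 TPM for CD8 T cells. The CD8 sum was almost all Cd8b1, whereas Cd8a stood at 0.0636 to 0.511 TPM. B cell markers summed to 2.25 to 5.59 TPM, natural killer cell markers to 3.92 to 6.10 TPM, mostly Eomes, and stromal and epithelial markers to 4.10 to 4.63 TPM, mostly Epcam. Dendritic, neutrophil and erythroid markers each summed to under 1 TPM in every library, with 2 of 4, 3 of 4 and 2 of 4 at a count of 0 throughout.

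Polyamines are small positively charged molecules that bind RNA and DNA and that dividing cells need. Ornithine decarboxylase makes putrescine, and spermidine synthase and spermine synthase then add aminopropyl groups, which come from decarboxylated S-adenosylmethionine. Polyamines limit their own synthesis through antizyme, a protein that sends ornithine decarboxylase to the proteasome, and activated T cells are known to build up polyamines as they begin to grow and divide.

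Antizyme carries the best-known regulatory sequence of the pathway. Ribosomes reach a stop codon early in its message and shift by a base when polyamines are plentiful, which yields the full protein. The 30 bases around that stop are shown because they hold the place of this shift. They also lie in a stretch that copies of the gene share. They were read from GENCODE M21 transcripts (assembly GRCm38, which is mm10), 5′ to 3′ on the coding strand, with the last sense codon and the stop codon in capitals.
Oaz1 frameshift site: gcctcggtggtgcTCCTGAtgtccctcacc
Oaz1-ps frameshift site: gcctcggtggtgcTCCTGAtgtccctcacc
Oaz2 frameshift site: gcctctgtggtgcTCCTGAtgcccctcacc
The processed pseudogene Oaz1-ps on chromosome 17 carries the Oaz1 site with 0 differences in 30 bases. Oaz2 differs at 2 bases, G6T and T22C, written as the Oaz1 base, the position from 1 at the 5′ end and the Oaz2 base. The whole site stood in 2 of 7 annotated Oaz1 transcripts and in 3 of 7 Oaz2 transcripts, and another 3 and 2 held it with 1 base left out by the annotation. Gene counts do not separate these transcripts, and the counts cannot show how often ribosomes shift.

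A second pair of sequences matters for reading the level of Amd1. S-adenosylmethionine decarboxylase supplies the aminopropyl groups, and the mouse has 2 annotated protein-coding genes for it, Amd1 and the near-identical Amd2, both on chromosome 10. Their coding sequences of 1005 bases differed at 1 base, so they were 99.9% identical. The window holds coding bases 766 to 825, from GENCODE M21 on GRCm38, with the differing base in capitals.
Amd1 coding window: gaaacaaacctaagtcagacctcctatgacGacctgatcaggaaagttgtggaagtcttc
Amd2 coding window: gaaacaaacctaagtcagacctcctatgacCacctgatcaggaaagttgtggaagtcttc
The change is G796C, counted from 1 at the start codon of Amd1, and the longest identical run within the coding sequences was 795 bases. A read inside such a run cannot be placed in 1 gene. The count step did not switch on the options for multiply mapped reads or reads over several genes, so the level of Amd1 below is uncertain.

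All 10 genes were detected at 1 TPM or more in all 4 libraries, a level that 49.9% of the 21751 nuclear protein-coding genes reached. Mean levels ran from 2200.4 TPM for Odc1 to 11.4 TPM for Paox, a 193-fold span. The median over the 10 was 73.4 TPM, beside 1.43 TPM over all nuclear protein-coding genes and 31.9 TPM over the 10861 of them that reached 1 TPM in every library. In bulk RNA a lower level in fewer cells and a lower level in every cell cannot be told apart.

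Odc1, ornithine decarboxylase (ENSMUSG00000011179.7, chromosome 12, 17544873 to 17551502 on mm10, plus strand), is the first enzyme of synthesis. It measured 1974.3, 2242, 2215 and 2370.5 TPM in replicates 1 to 4, from 56765 to 208087 counts. Replicate 1 was the lowest and replicate 4 the highest. The mean of 2200.4 ± 165 TPM (SD, n = 4) placed Odc1 at rank 18 among nuclear protein-coding genes, and between ranks 16 and 22 in single libraries. Odc1 alone held 61.7 ± 1.21% (SD, n = 4) of the summed level of the 10 genes, which was 3561 ± 202 TPM. The SD of that share covers the spread between libraries and not the choice of gene length.

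**Figure D1:**
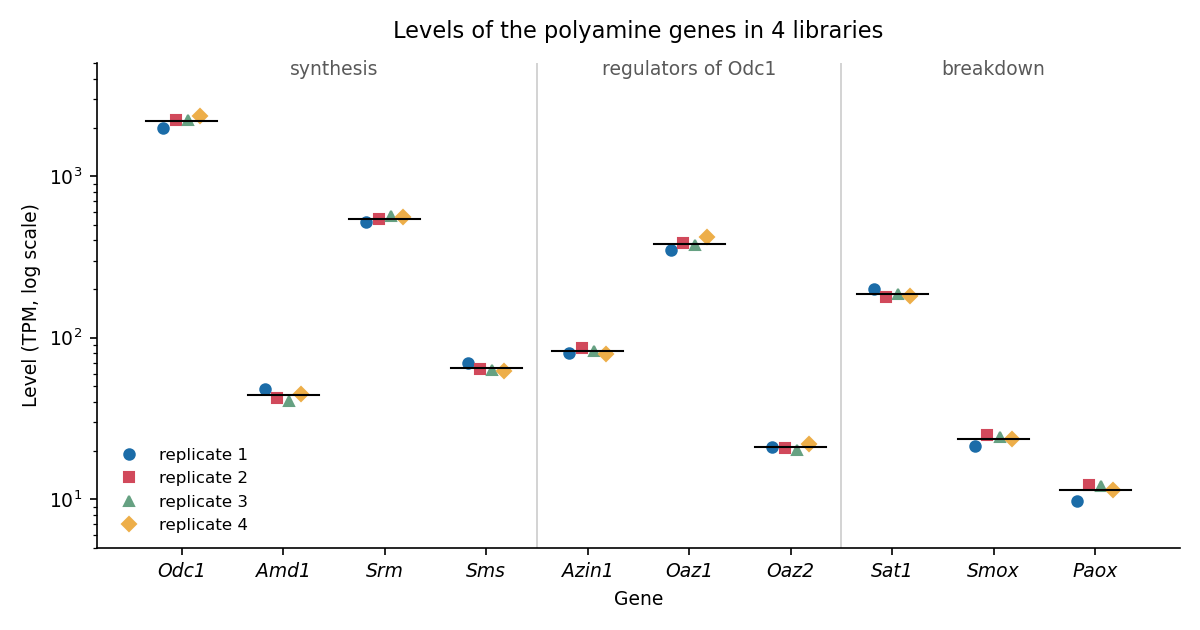
Level of each gene in each of the 4 libraries, in TPM on a log axis, with a horizontal line at the mean and genes grouped by role. Odc1 sits between 1974.3 and 2370.5 TPM and Paox between 9.71 and 12.3 TPM, and the 4 libraries of a gene lie close together.

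The aminopropyl transfer enzymes were unequal. Srm, spermidine synthase (ENSMUSG00000006442.10, chromosome 4, 148591503 to 148594993, plus strand), measured 517, 540.1, 566 and 562 TPM in replicates 1 to 4. Sms, spermine synthase (ENSMUSG00000071708.11, chromosome X, 157443855 to 157492287, minus strand), measured 69.5, 63.8, 63.1 and 62.0 TPM. The ranges were far apart: Srm averaged 546 ± 22.6 TPM and Sms 64.6 ± 3.37 TPM (SD, n = 4 each), at ranks 216 and 3141. On the log2(TPM + 0.1) scale Srm exceeded Sms by 3.08 ± 0.13 (SD, n = 4), in the same direction in all 4 libraries. The exact two-sided sign-flip permutation test gave p = 0.13, which is 2 of 16 sign patterns, and the same after Benjamini-Hochberg adjustment over all 45 pairs of the 10 genes. With 4 libraries this is the smallest p the test can give, so no pair here can pass 0.05, and the spread between libraries is what each difference is read against.

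Amd1 (ENSMUSG00000075232.5, chromosome 10, 40287458 to 40302186, minus strand) measured 48.2, 42.4, 40.6 and 44.5 TPM in replicates 1 to 4, a mean of 43.9 ± 3.27 TPM (SD, n = 4) at rank 4342. As deposited it was the lowest of the 4 synthesis genes. Odc1 exceeded it by 5.64 ± 0.19 on the log2 scale. The values in replicates 1 to 4 were 5.35, 5.72, 5.77 and 5.73, with replicate 1 apart from the rest. Of the 50-base windows along the main Amd1 transcript, 12.4% occurred in no other gene, and 23.6% and 39.3% of windows of 100 and 200 bases did so. Amd2 held 86.1% of the 50-base windows. Dividing the TPM by these shares, with the library total not rescaled, gave 355 ± 26.5, 186 ± 13.9 and 112 ± 8.32 (SD, n = 4) for windows of 50, 100 and 200 bases. The sources used here give no read length, so none of these can be picked, and the place of Amd1 in the order is open to that extent.

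Amd2 (chromosome 10, 35708675 to 35711892, minus strand) had 7, 47, 16 and 37 counts in replicates 1 to 4, or 0.193, 0.401, 0.384 and 0.389 TPM. Per unique 50-base window, Amd1 had 4.94, 14.03, 4.78 and 11.9 counts in replicates 1 to 4 and Amd2 had 0.0154, 0.104, 0.0352 and 0.0815. The ratio of these ran from 136-fold to 320.5-fold, and from 135-fold to 318-fold and 138-fold to 325-fold with windows of 100 and 200 bases. Counts that could be placed therefore belonged almost wholly to Amd1.

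Of the 3 regulators, Oaz1 was the most abundant. Oaz1, antizyme 1 (ENSMUSG00000035242.15, chromosome 10, 80826656 to 80829290, plus strand), measured 347, 385, 374 and 419 TPM in replicates 1 to 4. Oaz2, antizyme 2 (ENSMUSG00000040652.16, chromosome 9, 65668001 to 65690300, plus strand), measured 21.1, 20.8, 20.04 and 21.9 TPM. The lowest Oaz1 library was far above the highest Oaz2 library. Means were 381 ± 29.9 TPM for Oaz1, at rank 362, and 20.9 ± 0.759 TPM for Oaz2, at rank 6721 (SD, n = 4 each). Oaz1 exceeded Oaz2 by 4.18 ± 0.10 on the log2 scale, higher in 4 of 4 libraries. Azin1, antizyme inhibitor 1 (ENSMUSG00000037458.14, chromosome 15, 38487430 to 38519266, minus strand), is a relative of ornithine decarboxylase that binds antizyme without making putrescine. It measured 80.2, 86.5, 82.9 and 79.4 TPM in replicates 1 to 4, with a mean of 82.3 ± 3.21 TPM (SD, n = 4) at rank 2487.

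The enzyme stood above each of its regulators. Odc1 exceeded Oaz1 by 2.53 ± 0.03 and Azin1 by 4.74 ± 0.12 on the log2 scale (SD, n = 4). The 3 regulators together summed to 485 ± 30.2 TPM, and the 4 synthesis genes to 2855 ± 179 TPM, of which Odc1 made up 77.0 ± 1.03%. The difference between Odc1 and Oaz1 was the steadiest of the 45, with an SD of 0.03 beside a median SD of 0.11 and a highest of 0.25. It was picked out after its values were seen, and it holds without correction for GC content and length. After that correction, the log2 CPM of Odc1 relative to its mean was -0.126, 0.004, 0.015 and 0.107 in replicates 1 to 4. Oaz1 was at -0.008, -0.015, -0.070 and 0.093, so the 2 genes moved less alike. The SD of their corrected difference was not computed.

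**Figure D2:**
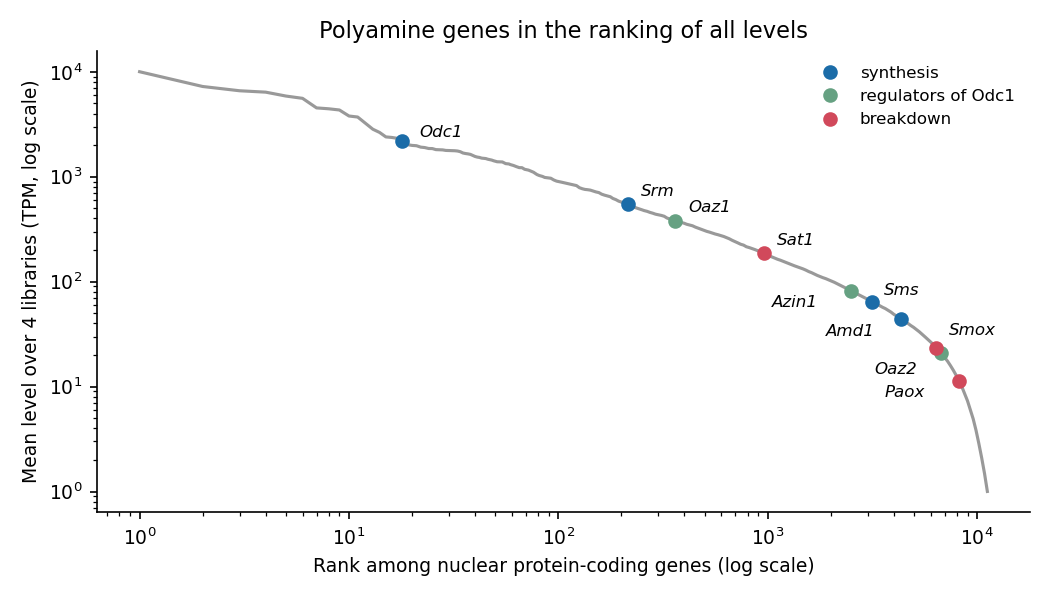
Mean level over the 4 libraries against rank among nuclear protein-coding genes, both on log axes; the grey line is all such genes with a mean of 1 TPM or more and the coloured points are the 10 genes by role. Odc1 lies at rank 18, Srm at 216, Oaz1 at 362, and Paox at 8197.

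On the breakdown side Sat1 was highest. Sat1, spermidine/spermine N1-acetyltransferase (ENSMUSG00000025283.15, chromosome X, 155213132 to 155216449, minus strand), acetylates polyamines so that they can be exported or oxidized. It measured 200.3, 178, 186 and 180.5 TPM in replicates 1 to 4, with a mean of 186 ± 9.90 TPM (SD, n = 4) at rank 959. Replicate 1 was the highest. Smox, spermine oxidase (ENSMUSG00000027333.18, chromosome 2, 131491496 to 131525922, plus strand), turns spermine directly into spermidine and measured 21.2, 24.9, 24.3 and 23.7 TPM. Paox, the oxidase that acts on acetylated polyamines (ENSMUSG00000025464.15, chromosome 7, 140115799 to 140137224, plus strand), measured 9.71, 12.3, 12.1 and 11.5 TPM. Replicate 1 was the lowest for both oxidases, and their ranges did not overlap. Smox averaged 23.5 ± 1.63 TPM at rank 6390, and Paox 11.4 ± 1.16 TPM at rank 8197 (SD, n = 4 each).

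Sat1 exceeded Smox by 2.98 ± 0.17 and Paox by 4.02 ± 0.22 on the log2 scale, and Smox exceeded Paox by 1.05 ± 0.05 (SD, n = 4). Each of these was in the same direction in 4 of 4 libraries. Odc1 exceeded Sat1, the most abundant breakdown gene, by 3.56 ± 0.18. The 3 breakdown genes summed to 221 ± 7.40 TPM.

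Sat1 and Sms both lie on the X chromosome, 2.23 megabases apart. Sms measured 69.5 and 63.8 TPM in the libraries with high Xist and 63.1 and 62.0 TPM in the others, so both libraries with high Xist lay above both others. That order held in CPM, at 135, 117, 116 and 115 in replicates 1 to 4, but not on every scale. With TPM taken over nuclear protein-coding genes, Sms measured 79.2, 69.4, 70.6 and 67.1 in replicates 1 to 4. In log2 CPM corrected for GC content and length, replicate 2 was at -0.045, below replicate 4 at -0.034. Sat1 measured 200.3 and 178 TPM in the libraries with high Xist and 186 and 180.5 TPM in the others, and these overlapped. Without correction for GC content and length, their difference from each other had an SD of 0.03 on the log2 scale, the second smallest of the 45 pairs. That pair, too, was picked out after its values were seen.

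In descending order the mean levels ran Odc1, Srm, Oaz1, Sat1, Azin1, Sms, Amd1, Smox, Oaz2 and Paox. All 45 pairs kept 1 direction in all 4 libraries. Among neighbours the log2 differences were 2.01 ± 0.07 for Odc1 minus Srm, 0.52 ± 0.08 for Srm minus Oaz1, 1.03 ± 0.18 for Oaz1 minus Sat1 and 1.18 ± 0.11 for Sat1 minus Azin1 (SD, n = 4). Lower down they were 0.35 ± 0.10 for Azin1 minus Sms, 0.56 ± 0.07 for Sms minus Amd1, 0.90 ± 0.20 for Amd1 minus Smox, 0.17 ± 0.13 for Smox minus Oaz2 and 0.88 ± 0.18 for Oaz2 minus Paox. Smox and Oaz2 were the closest neighbours, apart by little more than their spread. Srm and Oaz1 changed places under every other measure of length tried, and in CPM, where length is not used. With unique length, Amd1 moved above Azin1 and Sms at all 3 window sizes, and above Sat1 at 50 bases. Sms also moved above Azin1 at all 3 window sizes, Oaz2 above Smox at 50 bases, and Paox above Oaz2 with the median length of protein-coding transcripts.

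The members differed in how much of their sequence copies share. No 50-base window of Azin1 or Smox occurred in another gene, and Srm, Sat1 and Oaz2 had 97.6%, 92.7% and 88.0% of such windows to themselves. Sms and Paox had 71.3% and 71.2%, Odc1 57.8%, Oaz1 46.1% and Amd1 12.4%. At 200 bases the Odc1 windows were all unique, whereas Oaz1 stayed at 66.7%, Sms at 74.4% and Paox at 78.5%.

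The length by which counts are divided moved some levels by more than 1.5-fold. With the TPM divided by the unique share of 50-base windows, Odc1 came to 3807 and Oaz1 to 827, and Oaz1 came to 669 at 100 bases. For Oaz1 that share comes from a main transcript of 1044 bases and is applied to an exonic length of 2558 bases, so these are rough values. That main transcript does not hold the whole frameshift site, so no window spanning the site could match Oaz1-ps. The unique share of Oaz1 may thus be too high. Over the median length of protein-coding transcripts, Odc1 came to 1168 TPM, Oaz1 to 618 TPM, Srm to 300.4 TPM and Paox to 25.1 TPM. On that length Odc1 exceeded Oaz1 by 0.92 and Sat1 by 2.34 on the log2 scale, and Srm exceeded Sms by 1.76. Smox exceeded Paox by 0.06, close to the spread of 0.05 between libraries. Odc1 stayed the highest of the 10 on every length tried. Its shares of the summed levels were computed on the exonic length only.

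The copies themselves drew few counts. The option for multiply mapped reads was not switched on, so few counts here do not measure how far a copy is expressed. Oaz1-ps, which shares 53.9% of the 50-base windows of Oaz1 and its frameshift site, had 1.43% to 1.91% of the Oaz1 counts in each library and a level of 24.6 ± 3.12 TPM (SD, n = 4). Sms-ps, a processed pseudogene on the X chromosome that shares 28.7% of the windows of Sms, had 8.33% to 10.4% of the Sms counts and 32.3 ± 2.66 TPM. These 2 had the most counts of the copies named here. Sms-ps is 1101 bases long and shared 1052 windows of 50 bases with Sms, as many as that length holds. Its sequence therefore cannot mark these counts as its own. Gm19680, which shares 27.3% of the windows of Paox, had 1.30% to 3.12% of its counts. For Odc1 the copies Gm7993 and Gm17709, which share 20.3% and 19.9% of its windows, had 0.129% to 0.140% and 0.151% to 0.209% of its counts. Oaz2-ps had 9, 0, 0 and 6 counts in replicates 1 to 4. All 5 Amd pseudogenes had at most 14 counts in a library, and 2 of them had 0 counts throughout.

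**Figure D3:**
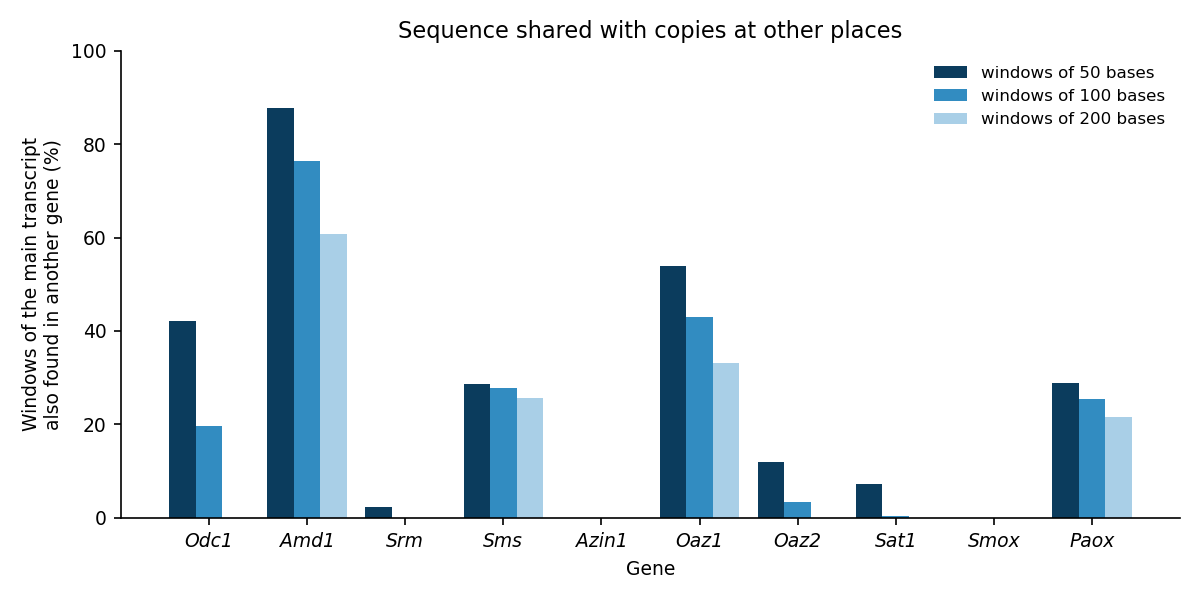
Share of windows of 50, 100 and 200 bases along the main transcript of each gene that also occur in a transcript of another gene elsewhere, in percent. Amd1 and Oaz1 share most at every window size, Azin1 and Smox share none, and Odc1 shares none at 200 bases.

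The 10 genes were steady between libraries. The highest library exceeded the lowest by 1.09-fold to 1.26-fold, and the coefficient of variation of the TPM was 3.62% to 10.2%. Counting error alone gives 0.323% to 3.25%. The values were closest for Oaz2, at 3.62% between libraries and 3.02% from counting, and whether the spread exceeds counting error was not tested. The edgeR goodness-of-fit test, which asks whether a gene varies more than the dispersion trend at its level, called 66 of 14269 genes at an adjusted p of 0.05, which is 0.463%. All 10 members were tested and 0 of 10 were called by this edgeR test, with 0 of 10 at an unadjusted p under 0.05 and 0 of 10 called by limma variances. The smallest unadjusted p was 0.0965, for Amd1, and its Benjamini-Hochberg adjusted p was 1.00. With so few calls over all genes, no call among 10 says nothing particular about them. The median SD of log2 CPM was 0.09 over the members and 0.12 over all genes tested, and 9 of 10 members lay below that all-gene median. Over the protein-coding genes alone the median was 0.104. Paox, Sms, Sat1 and Amd1 lay above that one, at 0.110, 0.115, 0.116 and 0.149, and the other members below it.

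Replicate 1 stood at an extreme for most of the set. Its TPM was the lowest of the 4 for Odc1, Srm, Oaz1, Smox and Paox and the highest for Amd1, Sms and Sat1. In log2 CPM relative to the mean of each gene, replicate 1 was at 0.20 for Amd1, 0.17 for Sms and 0.17 for Sat1, and at -0.09 for Odc1, -0.08 for Smox and -0.16 for Paox. Across 12152 protein-coding genes, deviations in this library went with GC content, with a Spearman rho of -0.26 beside 0.01, 0.08 and 0.26 in replicates 2, 3 and 4. With gene length the rho was -0.15, 0.02, 0.28 and -0.15 in replicates 1 to 4. The GC content, as the mean over all annotated transcripts of a gene, was 43.1% for Amd1, 43.8% for Sms and 45.01% for Sat1. It was 48.0% for Odc1, 58.4% for Smox and 52.2% for Paox. After correction for GC content and length, replicate 1 was at 0.16 for Amd1, 0.15 for Sms, 0.12 for Sat1, -0.13 for Odc1, 0.02 for Smox and -0.13 for Paox. The deviation of Smox thus went away, that of Odc1 grew, and those of Amd1, Sms, Sat1 and Paox kept their sign. For Srm, replicate 1 went from -0.015 before correction to 0.033 after it, and for Oaz1 from -0.070 to -0.008.

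**Figure D4:**
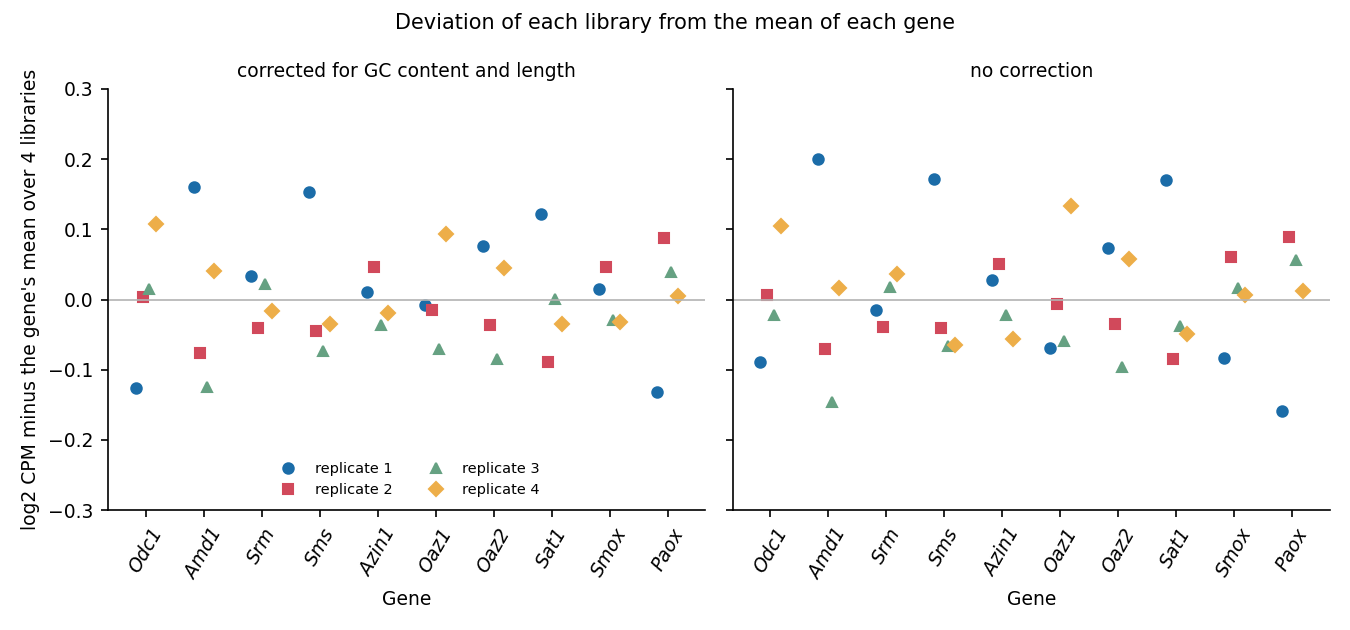
Log2 CPM of each gene in each library minus the mean of that gene over the 4 libraries, after correction for GC content and length (left) and without it (right). Replicate 1 is the highest library for Amd1, Sms and Sat1 and the lowest for Odc1 and Paox in both panels.

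The wider pathway was read from a list of 35 further genes in 7 groups. In all 4 libraries, 22 of 35 (62.9%) reached 1 TPM, beside 49.9% of nuclear protein-coding genes, and the median of their mean levels was 46.5 TPM. Of the 24 genes of the list that could be tested for spread, 0 were called by edgeR, 0.463% being the share over all genes, and 1 had an unadjusted p under 0.05. The 8 most abundant were Eif5a, Myc, Oat, Mat2a, Slc3a2, Max, Dohh and Slc7a1.

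Hypusine genes were all detected, 4 of 4. Spermidine is the source of hypusine, an amino acid made by modifying the translation factor Eif5a. Eif5a (chromosome 11, 69916714 to 69921958, minus strand) measured 2012, 2067, 1884 and 1934 TPM in replicates 1 to 4. Its mean of 1974 ± 81.2 TPM (SD, n = 4) was close to that of Odc1. Dhps and Dohh, which carry out the modification, averaged 79.1 ± 1.21 and 95.2 ± 5.69 TPM. Eif5a2, the second Eif5a gene, averaged 11.2 ± 1.21 TPM.

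Salvage of methylthioadenosine, the by-product of aminopropyl transfer, was also detected in full, 5 of 5. These genes lay in a narrow band, with means of 90.8 TPM for Adi1, 80.4 TPM for Mtap, 79.6 TPM for Mri1, 56.6 TPM for Apip and 47.1 TPM for Enoph1.

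Of the precursor genes, 5 of 9 reached 1 TPM. Ornithine for Odc1 can come from arginine through arginase or from glutamate and proline through ornithine aminotransferase. Both arginase genes were at or near 0: Arg1 had 0 counts in all 4 libraries, which allows up to the limits in CPM given with the depths, and Arg2 measured 0, 0.173, 0.324 and 0.450 TPM in replicates 1 to 4. Oat, the aminotransferase, measured 227, 228, 211 and 236 TPM, with a mean of 225 ± 10.6 TPM (SD, n = 4). Mat2a, the catalytic subunit that makes S-adenosylmethionine outside the liver, averaged 211 ± 7.48 TPM, whereas Mat1a, the liver form, had 0 counts. RNA levels do not give the flow through either route.

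Transport genes reached 1 TPM in 4 of 7 cases. Slc3a2, a heavy chain of amino acid transporters, averaged 141 ± 5.20 TPM and Slc7a1, the carrier of arginine and other cationic amino acids, 95.003 ± 3.98 TPM (SD, n = 4 each). Atp13a2 and Atp13a3, polyamine transporters, averaged 65.2 ± 8.99 and 59.4 ± 3.38 TPM. Slc7a2 and Slc18b1 stayed below 1 TPM in every library and Atp13a4 had 0 counts. All 4 of 4 transcription factors and stress-response genes of the list were detected, led by Myc, an activator of Odc1 transcription, at 425 ± 30.8 TPM, and its partner Max at 105 ± 3.36 TPM.

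The paralogs of the 10 genes were low, and so was Aoc1, a further breakdown gene that is not counted as a paralog here. Azin2, a second antizyme inhibitor, measured 0.903, 1.57, 1.80 and 0.942 TPM in replicates 1 to 4, and Oaz3, an antizyme known from testis, 0.123, 0.165, 0 and 0.0861 TPM. Sat2 and Aoc1, a further acetyltransferase and a diamine oxidase, averaged 0.188 and 0.115 TPM, and Satl1 had 0 counts. None of these 5 reached 1 TPM in all 4 libraries, whereas each of the 10 members did.

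**Figure D5:**
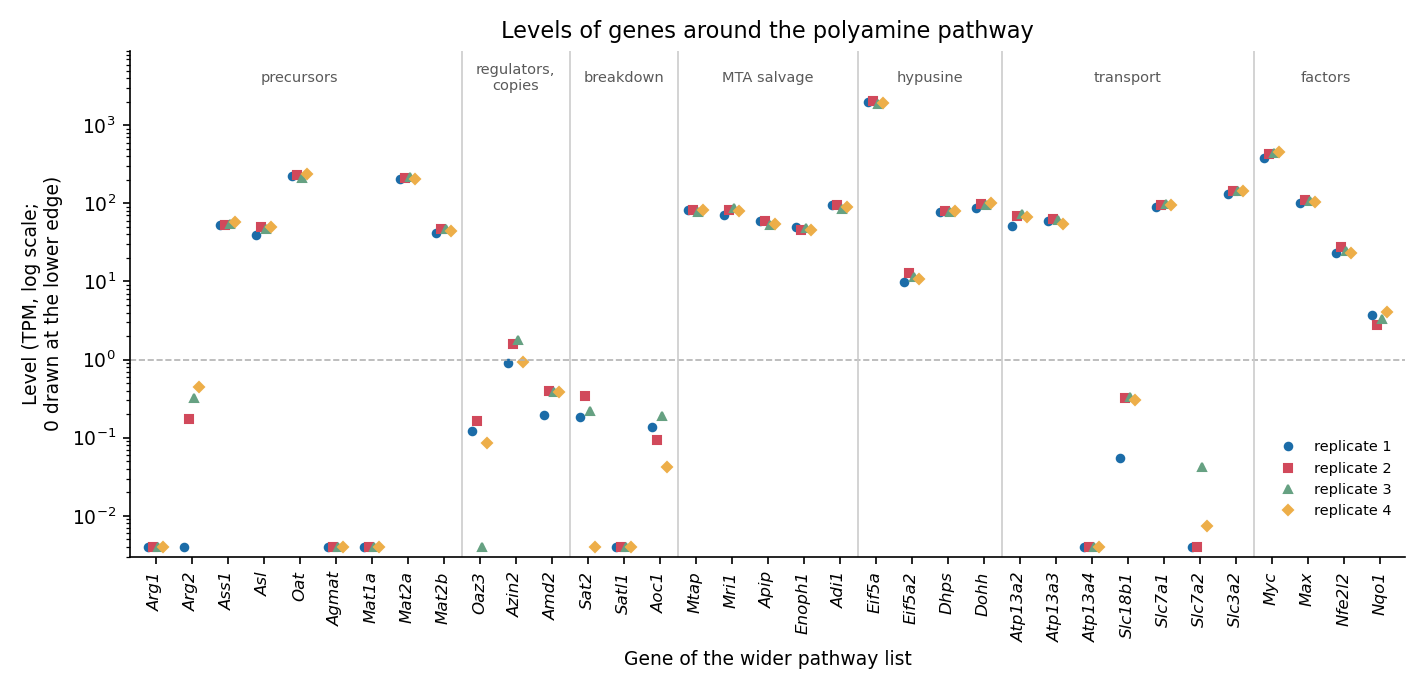
Level of the 35 further pathway genes in each library, in TPM on a log axis, in 7 groups, with a dashed line at 1 TPM and values of 0 drawn at the lower edge. Eif5a stands highest at 1884 to 2067 TPM, all hypusine and methylthioadenosine (MTA) salvage genes lie above the line, and further regulators, copies and breakdown genes lie near or below it.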

How the data were processed

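RNA was sequenced in 4 libraries of 1 group. The deposited files hold raw counts, 1 per read pair and gene, made with featureCounts 1.4.6-p4 on GENCODE M13 and mm10, per the file headers, with the reverse strand setting and both ends mapped. Options for multiply mapped reads or reads over several genes were not switched on, per the file headers, so genes with near-identical copies can lose counts. The sources used here name neither the aligner version nor the read length. The deposited files also give the exonic length of each gene.

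TPM was computed here from these counts and lengths over all genes. Symbols and classes came from GENCODE M21, which held 50376 of 50600 identifiers (99.6%). The 10 genes and all lists were chosen with earlier results of these data known. Named genes were the members, the 8 most abundant pathway genes, and their paralogs and copies. Genes at a level like that of Odc1, also in the rule, are not reported here. Others of the pathway list were named to describe each group after values were seen.

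Pairs of members were compared inside libraries as differences of log2(TPM + 0.1), with an exact sign-flip test over libraries. Spread was tested with edgeR 4.0.16 in R 4.3.3 (filterByExpr, TMM, trended dispersion, goodness of fit, Benjamini-Hochberg over 14269 genes at 0.05). On simulated counts, 200 genes raised in 1 library by 1.5-fold, 2-fold and 4-fold were called in 42.0%, 74.5% and 90.5% of cases. GC content and length were corrected with mgcv 1.9.3, with limma 3.58.1 variances. Log2 CPM used a prior count of 2. Windows of 50, 100 and 200 bases of the main transcript were searched, as exact matches on both strands, in all GENCODE M21 transcripts, and no genome was used. Levels given for unique length are the TPM divided by the unique share of these windows, with no rescaling of the library.

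Counts per library set the precision: limits for a count of 0 are 3 counts at 95% confidence and cover counting error only. No pair of libraries agreed within sampling noise (chi-square per degree of freedom of 29.6 to 91.6). Alternatives were other lengths, CPM, another pseudocount, scaling, filter, dispersion and threshold, and each library left out.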

Additional observations from a re-analysis of the deposited data

Results flagged for a closer look

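Of 71 values of genes and contrasts examined over the 4 libraries, 6 had a library far from the others by Dixon's test, beside 3.55 that chance alone would give at 1 in 20. In replicate 1, Amd2 was low, at 0.193 TPM with the others at 0.384 to 0.401 TPM. The polyamine transporter Slc18b1 was low in the same library, at 0.0544 TPM from 2 counts, with the others at 0.301 to 0.331 TPM. The Odc1 pseudogene Gm7278 was low there too, at 1.20 TPM with the others at 4.29 to 4.54 TPM, and so was Odc1 minus Amd1, at 5.35 on the log2 scale with the others at 5.72 to 5.77. In replicate 2, the pseudogene Amd-ps4 was high, at 0.246 TPM from 9 counts, with the others at 0 to 0.0338 TPM. Amd-ps6 was high there too, at 0.109 TPM from 4 counts, with the others at 0. Where the others are tied at 0, any count above 0 is flagged, so the flag of Amd-ps6 carries no weight. The 3.55 flags from chance do not allow for such ties or for values of a few counts. Replicate 1 has the lowest depth and replicate 2 the highest, and the part of depth in these values was not tested.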

How the results depend on the processing

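None of the 9 contrasts between members changed direction under any of its 10 alternatives, and leaving out each replicate kept all 45 pairs in 1 direction. Pairs in 1 direction numbered 44 in CPM and with unique 50-base windows, and 43 with windows of 100 or 200 bases or coding transcript length. Odc1 minus Amd1 ran from 3.42 to 5.74 and Smox minus Paox from 0.06 to 1.06. The count of genes more variable than the trend was 66, and it was 955 with a common dispersion, 13 with GC and length correction and limma variances, and 12 with limma variances alone; the cause was not tested. Without replicates 1 to 4 in turn it ran from 41 to 68, with 41 without replicate 1 and 45 without replicate 2. The count of members called was 0 under every alternative. Of the pathway list, 23 genes reached 0.5 TPM and 21 reached 5 TPM. Levels themselves moved by more than 1 SD for 7, 5 and 4 of 10 genes with unique windows of 50, 100 and 200 bases, for 10 of 10 when TPM was taken over nuclear protein-coding genes and for 9 of 10 with coding transcript length, but for 0 when a replicate was left out. The alternatives with coding transcript length, with limma variances alone and with unique length for the count of pairs were chosen after seeing the data. No paired analysis was possible because the labels give only 1 group. Depth limits only the lowest genes, since the members had at least 538 counts.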
